A study of Mus musculus with 48 samples.

Results

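The comparison covers regulatory T cells (Tregs) of mice whose MHC class II had been blocked with an antibody, after WT IL-2 or PBS. Its members are the Treg libraries labelled MHCII-Block with the drug WT (4 libraries, Block WT) or PBS (4 libraries, Block PBS), 8 of the 48 libraries of the series. All 8 came from spleens of female C57BL/6 mice of 8 to 12 weeks, 1 mouse per library. Every mouse had received 2 doses of 500 µg of the MHC II blocking antibody, given into the peritoneum the day before and on the day of IL-2. Block WT mice then received 25 µg of WT IL-2 under the skin, human IL-2 of unmutated sequence fused to a human IgG1 Fc without effector function, and spleens were taken on day 4. The isotype arm had the same doses of an isotype control antibody (4 Isotype PBS and 4 Isotype WT libraries). It is used below to test where the response differed. Like all Treg groups, it also enters the fit's shared estimate of spread. Of the Isotype WT libraries, 2 carry the same mouse label, although the study's methods give 4 mice to each group, each processed separately. Should they come from 1 mouse, p-values that use them are too small. They differed by more than sampling noise and were kept as 2 libraries. Cells were enriched on magnetic columns as the CD25-bound fraction and were not sorted one by one, so each library is bulk RNA from 1 preparation, and fewer cells of a type and less RNA per cell cannot be told apart.

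IL-2 binds a receptor made of the alpha chain CD25 (Il2ra), which gives high affinity, and the signalling beta (Il2rb) and common gamma (Il2rg) chains. The receptor activates JAK1 and JAK3, which phosphorylate STAT5, and STAT5 drives Foxp3, the lineage factor of Tregs, together with feedback inhibitors of the SOCS family. The T cell receptor (TCR) of CD4 T cells sees peptide on MHC class II, so the blocking antibody withholds much of the TCR signal, and the comparison asks what IL-2 changes in Tregs when that signal is reduced. Effector Tregs, the more differentiated fraction, carry receptors such as ICOS, KLRG1 and ST2 and make IL-10 and granzymes.

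The library labelled Block WT replicate 1 stood apart from the other 7. On the first principal component of the 8 libraries (log2 CPM, 59.6% of the variance) it lay at 64.8, the other Block WT libraries lay between -4.4 and 19.1, and the Block PBS libraries lay between -29.6 and -8.5. The summed level of 14 B cell markers was 933 CPM in it (CPM, counts per M counts of the scaled library total), 124 to 181 in the other 3 Block WT libraries and 99.3 to 210 in Block PBS. The sum of 20 monocyte and macrophage markers was 1908 CPM against 425 to 682 and 294 to 362, and that of 13 neutrophil markers 331 CPM against 17.6 to 55.0 and 8.2 to 21.2. Dendritic cell markers summed to 2872 CPM against 693 to 1232 and 538 to 988. The 12 Treg identity markers summed to 3873 CPM in it, to 4658 to 4920 in the other Block WT libraries and to 4180 to 4469 in Block PBS, and Foxp3 and Il2ra were present in all 8. The counts under MHC II block are therefore given with all 8 libraries and without replicate 1 (3 against 4). Where 2 log2 values of the block arm follow each other, the first is with and the second without it.

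Some marker lists of other cells also moved with IL-2 among the remaining 7 libraries. NK cell markers (9 genes) summed to 120 to 135 CPM in the 3 Block WT libraries and 50.3 to 61.1 in Block PBS. The granule genes Gzma and Prf1 made up 48.1 to 58.4 against 7.66 to 9.56 CPM of this, and the other 7 members still did not overlap, at 66.6 to 78.0 against 41.3 to 53.4 CPM. CD8 T cell markers (5 genes) summed to 164 to 212 against 71.5 to 81.7 CPM, most of it Nkg7 and Ccl5, and the other 3 members overlapped (19.2 to 20.9 against 16.8 to 19.8 CPM). The monocyte and macrophage sums above did not overlap, but without Ly6c2 and Ccr2, which T cells can also make, the other 18 members did (261 to 358 against 245 to 290 CPM). By genes, 10 of 17 tested monocyte and macrophage markers and 7 of 9 neutrophil markers rose without replicate 1 and none fell, with median log2 fold changes of 1.02 and 2.81, beside 19.5% of all genes rising. The neutrophil sums were low and overlapped, at 17.6 to 55.0 against 8.2 to 21.2 CPM. Plasma cell markers (8 genes) overlapped, at 1798 to 3285 against 777 to 2153 CPM. B cell markers overlapped as well. Among the monocyte and macrophage markers 2 to 3 genes were at 0 in each Block PBS library and 1 in each Block WT library, and up to 4 neutrophil and up to 2 NK cell markers were at 0 in a Block PBS library but none in Block WT. The part of these cells in the results below was not tested unless a value is given.

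**Figure D1:**
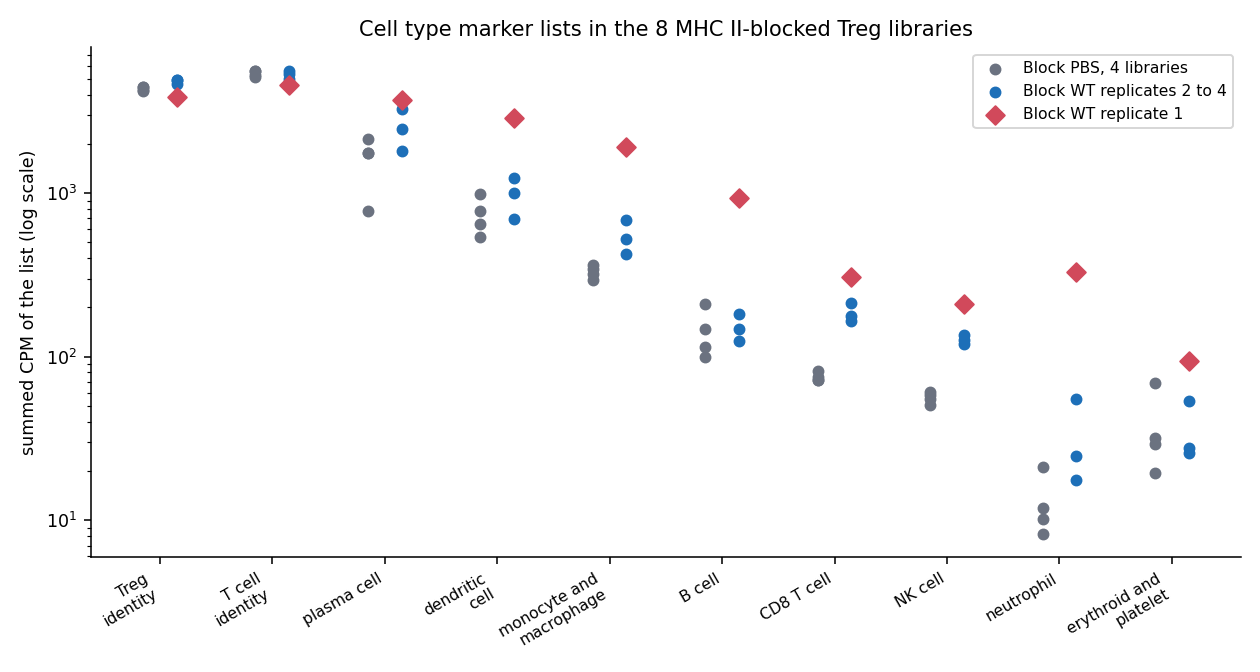
Summed CPM (vertical, log scale) of 10 marker lists in each of the 8 MHC II-blocked Treg libraries, with Block PBS in grey, Block WT replicates 2 to 4 in blue and Block WT replicate 1 as red diamonds. Replicate 1 lies highest for all 8 other-cell lists, from plasma cells at 3696 CPM to erythroid and platelet markers at 93.9 CPM, and lowest for the Treg and T cell identity lists.

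With all 8 libraries, 4416 of 12392 genes tested (35.6%) changed at an adjusted p below 0.1 (edgeR's quasi-likelihood test, p-values adjusted after Benjamini and Hochberg). Of these, 2717 (21.9% of those tested) were higher and 1699 (13.7%) lower with WT IL-2. Without replicate 1 the calls came to 4043 (32.6%), 2416 higher (19.5%) and 1627 lower (13.1%). Both fits called 3540 genes with the same sign, 2130 higher and 1410 lower, and 2 genes had opposite signs. Replicate 1 alone brought 874 calls, 585 of them higher, and its removal brought 501 others. Changes of 2-fold or more among the called genes numbered 481 higher and 71 lower with it, and 203 higher and 82 lower without it. The median log2 fold change over all tested genes was 0.02 in both fits.

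The balance of higher and lower calls depended on scaling and on other choices. Higher genes made up 61.5% of the calls with TMM scaling, 59.2% with DESeq2, 44.0% when only total counts were used (2065 higher, 2630 lower) and 41.5% with limma on FPKM, which changes the test and the unit as well. With TMM they made up 51.1% of the calls among genes above 1 CPM in at least 8 libraries and 51.9% when only the 8 libraries were fitted. The corresponding shares without replicate 1 were 59.8% with TMM and 42.8% with total counts. Small shifts of the median of all genes, from 0.02 to -0.03, accompanied this change, so the sign of a small fold change can turn with the processing.

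**Figure D2:**
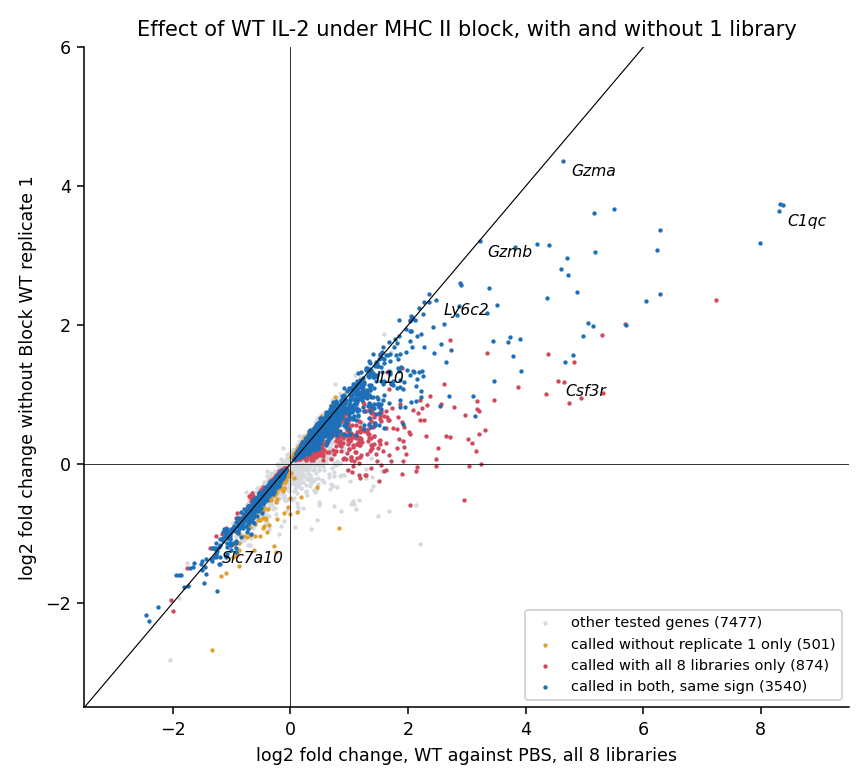
Log2 fold change of WT IL-2 against PBS for each tested gene with all 8 libraries (horizontal) and without Block WT replicate 1 (vertical). The line marks equal values. Blue points (3540 genes) were called in both fits with the same sign, red points (874) only with replicate 1 and orange points (501) only without it. Most red points lie at positive values to the right of the line.

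Fold changes of the receptor and its signalling chain were small. Of 12 tested genes of the IL-2 receptor, JAK and STAT5 list, 2 rose and 2 fell with all libraries, and 1 rose and 2 fell without replicate 1 (median log2 fold change 0.01 in both). With 35.6% and 32.6% of all genes called, these counts do not set the list apart. Il2ra stood at 380, 345, 337 and 343 CPM in Block PBS and at 311, 372, 423 and 383 CPM in Block WT replicates 1 to 4. The groups overlapped, and the log2 difference was 0.08 ± 0.09 (SE; edgeR's quasi-likelihood test, Benjamini-Hochberg adjusted p = 0.534) with and 0.16 ± 0.09 (adjusted p = 0.213) without replicate 1. Il2rb also did not pass (0.04 ± 0.06 with and 0.07 ± 0.07 without replicate 1). Il2rg, the chain shared with the receptors of other cytokines, rose slightly, from 502 to 525 CPM in Block PBS to 541 to 613 in Block WT (0.14 and 0.16 on the log2 scale). Both STAT5 genes fell. Stat5a was at 132 to 145 CPM in Block PBS and at 104, 123, 127 and 116 in Block WT, with no overlap (log2 -0.24 ± 0.05 with and -0.19 ± 0.05 without replicate 1). Stat5b fell by 0.15 and by 0.14 on the log2 scale. In a further fit, the mean log2 levels of the B cell markers and of the monocyte and macrophage markers were added as covariates. Neither STAT5 gene passed in both fits with these marker covariates. The monocyte and macrophage covariate includes Ccr2 and Ly6c2, which rose with IL-2 in every treated library.

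The genes that STAT5 induces or represses split. Of 20 such targets, 7 rose and 4 fell with all libraries and 6 rose and 5 fell without replicate 1, beside 21.9% and 19.5% of all genes rising and 13.7% and 13.1% falling. Cish, the feedback inhibitor best known as an immediate STAT5 target, was at 188, 173, 193 and 176 CPM in Block PBS and 165, 208, 189 and 192 in Block WT. These values overlapped, and the difference did not pass (log2 0.05 ± 0.06 with and 0.10 ± 0.06 without replicate 1, edgeR's quasi-likelihood test, Benjamini-Hochberg adjusted p = 0.607 and 0.191). Gzmb, the serine protease granzyme B, showed the largest rise of the list, from 10.3, 9.52, 8.45 and 7.6 CPM in Block PBS to 84.8, 75.0, 87.6 and 85.8 in Block WT. All 4 treated libraries lay far above all 4 controls, and replicate 1 was no exception (log2 3.22 ± 0.26 with it, 3.21 ± 0.28 without it). Bcl6, a repressor that STAT5 opposes in T helper cells, went from 39.3, 40.7, 39.1 and 41.8 CPM to 34.8, 32.3, 31.8 and 30.1 CPM, again without overlap (log2 -0.32 ± 0.07 and -0.36 ± 0.08).

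STAT5 binds DNA letters of the form TTCNNNGAA, and the promoters of these 3 genes show how the best known, the most induced and a repressed member differ in where these letters stand. Each window below, from RefSeq on GRCm38.p6, runs 5′ to 3′ on the gene's strand from 250 bases before the annotated start to 50 after it, with matches to TTCNNNGAA in capitals. The pattern is its own reverse complement, so both strands are covered at once.
Cish chr9:107296409-107296708 (+): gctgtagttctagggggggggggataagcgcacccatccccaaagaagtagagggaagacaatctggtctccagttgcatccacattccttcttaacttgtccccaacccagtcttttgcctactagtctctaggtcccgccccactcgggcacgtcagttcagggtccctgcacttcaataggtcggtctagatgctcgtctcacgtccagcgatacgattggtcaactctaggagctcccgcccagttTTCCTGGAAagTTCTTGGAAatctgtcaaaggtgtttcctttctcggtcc
Gzmb chr14:56262285-56262584 (-): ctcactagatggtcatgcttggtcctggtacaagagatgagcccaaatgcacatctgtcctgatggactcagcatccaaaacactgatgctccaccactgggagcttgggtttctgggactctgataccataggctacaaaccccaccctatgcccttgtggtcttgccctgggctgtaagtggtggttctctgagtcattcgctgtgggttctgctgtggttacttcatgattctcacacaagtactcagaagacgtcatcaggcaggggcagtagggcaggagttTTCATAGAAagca
Bcl6 chr16:23981234-23981533 (-): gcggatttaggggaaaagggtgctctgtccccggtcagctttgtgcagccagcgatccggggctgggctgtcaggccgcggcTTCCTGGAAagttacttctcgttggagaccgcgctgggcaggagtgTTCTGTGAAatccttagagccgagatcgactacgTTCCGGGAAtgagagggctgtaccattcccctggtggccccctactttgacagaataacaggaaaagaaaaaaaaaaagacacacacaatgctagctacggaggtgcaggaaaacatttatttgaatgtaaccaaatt
The 2 matches in Cish lie at the annotated start, at bases 251 and 262 of the window, the single match in Gzmb lies at base 288, after the start, and the 3 matches in this Bcl6 window (1 of the gene's annotated starts) lie at bases 83, 129 and 163, before it. Socs3 and another Bcl6 window hold 1 match each. In all, 16 of the 20 targets had a window, 4 of these genes (Cish, Socs3, Gzmb and Bcl6) held the letters, beside 9.55% of the 27025 genes with a window. By windows it was 5 of 22, beside 8.3% of 32851. These matches are descriptions of the sequence. The genes that hold them include 1 that did not pass the test, 1 that rose and 2 that fell.

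Other targets followed both directions. Socs2, another cytokine feedback inhibitor, rose from 32.4, 24.8, 29.1 and 26.0 CPM to 44.2, 49.5, 59.3 and 50.4 CPM (log2 0.86 ± 0.13 with and 0.92 ± 0.14 without replicate 1). Pim1, a survival kinase, rose from 1047 to 1176 CPM in Block PBS to 1327 to 1565 in Block WT, and Lif, a cytokine of the IL-6 family, from 18.8 to 24.5 to 25.0 to 37.3 CPM. The groups did not overlap for any of these genes. Prdm1, which encodes the effector Treg factor Blimp-1, rose from 37.2 to 40.6 CPM to 50.3 to 65.2 CPM (log2 0.63 and 0.62), and Cdkn1a, the cell cycle inhibitor p21, rose by 0.51 on the log2 scale in both fits. The inhibitor Socs1 fell by 0.21 on the log2 scale in both fits, and Socs3 by 0.17 and 0.20. Bcl2, the survival factor, fell too, from 200 to 227 CPM to 150, 146, 200 and 157 CPM, and replicate 3 reached the lowest control (log2 -0.38 ± 0.09 with and -0.34 ± 0.10 without replicate 1). Pim2 fell only in the fit without replicate 1 (log2 -0.33, against -0.18 with it). With the marker covariates Socs1, Socs3 and Bcl2 were no longer called in both fits, and 2 of the 20 targets fell in each.

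**Figure D3:**
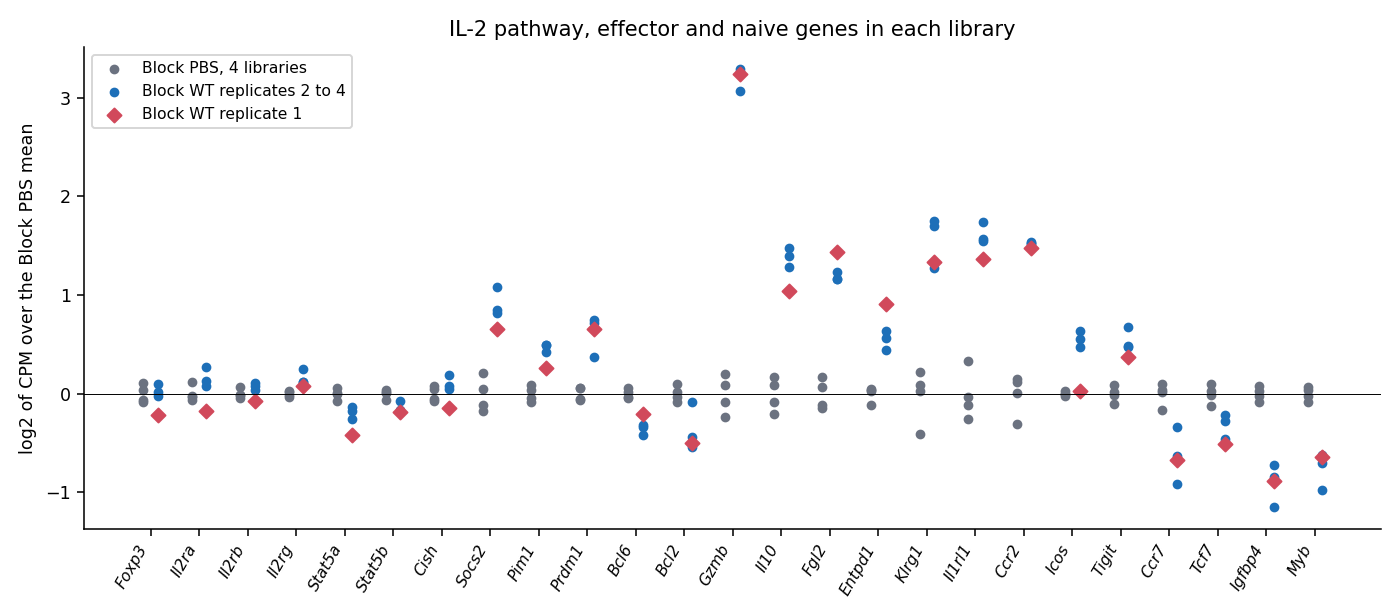
Log2 of each library's CPM over the Block PBS mean for genes of the IL-2 receptor and STAT5 pathway, effector genes and naive genes, with Block PBS in grey, Block WT replicates 2 to 4 in blue and replicate 1 as red diamonds. Foxp3, Il2ra, Il2rb and Cish overlap between groups, while Gzmb, Il10, Klrg1, Il1rl1 and Ccr2 separate completely.

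Surface receptors of effector Tregs rose as a group. With all libraries 16 of 20 tested rose and none fell, beside 21.9% of all genes rising, and without replicate 1 the count was 17, beside 19.5%. The list's median log2 fold change was 0.44 and 0.54 against 0.02 over all genes. Under total-count scaling 13 and 15 rose, beside 16.7% and 14.6% of all genes. Il1rl1, which encodes ST2, the IL-33 receptor, was at 20.6, 21.7, 28.1 and 18.7 CPM in Block PBS and at 57.5, 65.9, 65.3 and 74.5 in Block WT (log2 1.56 ± 0.12 and 1.62 ± 0.12). Klrg1, an inhibitory lectin-like receptor of terminally differentiated cells, was at 33.1, 34.4, 37.7 and 24.5 against 81.6, 105, 78.5 and 109 CPM (log2 1.53 ± 0.18 and 1.58 ± 0.19). For both genes the lowest treated library held more than 2 times the level of the highest control.

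Ccr2, a receptor for inflammatory chemokines and also one of the monocyte and macrophage markers, went from 31.7, 30.9, 28.6 and 23.0 to 79.3, 82.0, 81.7 and 82.6 CPM (log2 1.51 and 1.52). Replicate 1 lay just under the other treated libraries for Ccr2, unlike for the myeloid markers. Cxcr3, which follows T-bet in type 1 responses, rose from 43.8 to 55.1 CPM to 66.6 to 87.6 CPM, and Havcr2 (TIM-3) from 3.13 to 6.34 to 11.6 to 16.1 CPM. The skin and tissue homing receptor Ccr4 rose by 0.44 and 0.54 and Ccr8 by 0.27 and 0.38 on the log2 scale, and in replicate 1 both stood within the Block PBS range or below it (36.7 and 31.2 CPM).

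Icos, a costimulatory receptor, was at 176, 179, 174 and 176 CPM in Block PBS and at 180, 273, 259 and 245 in Block WT, so that replicate 1 barely left the controls (log2 0.44 ± 0.11 with and 0.56 ± 0.10 without it). Tigit rose from 103 to 118 CPM to 143 to 177 CPM (log2 0.50 and 0.55). Itgae, the CD103 integrin chain that binds E-cadherin, rose from 88.8 to 99.8 CPM to 149 to 162 CPM (log2 0.75 and 0.77). Cd44 rose by 0.26 and 0.22, Icam1 by 0.39 and 0.35, Itgb1 by 0.60 and 0.64 and Tnfrsf1b (TNFR2) by 0.21 and 0.26 on the log2 scale. Pdcd1 (PD-1) did not pass, with 38.8 to 46.5 CPM in Block PBS and 34.2 to 43.6 in Block WT, and neither did Tnfrsf4 (OX40), at 0.13 and 0.20. Tnfrsf1b was no longer called in both fits with the marker covariates.

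Suppressor molecules rose for 9 of 17 tested genes in both fits, with 1 fall, beside 21.9% and 19.5% of all genes rising (median log2 0.22 with and 0.30 without replicate 1). Il10, the anti-inflammatory cytokine, was at 35.5, 37.5, 31.4 and 28.8 CPM in Block PBS and at 68.5, 92.4, 81.1 and 87.6 in Block WT, without overlap (log2 1.31 ± 0.15 and 1.39 ± 0.15). Fgl2, a secreted suppressor, went from 17.4, 19.7, 21.1 and 17.0 to 51.0, 42.0, 42.2 and 44.2 CPM (log2 1.25 and 1.18). Entpd1 (CD39), the enzyme that starts the breakdown of extracellular ATP, rose from 33.5 to 37.5 CPM to 49.4 to 68.0 CPM (log2 0.65 and 0.55). Replicate 1 was the highest library for Fgl2 and Entpd1 and the lowest treated library for Il10. Lgals1, the lectin galectin-1, rose by 0.86 and 0.83 on the log2 scale, Areg, the tissue repair factor amphiregulin, by 0.60 and 0.70, and Ebi3, a subunit of IL-35, by 0.36 and 0.35.

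Several suppressor molecules did not pass or fell. Ctla4 was at 831 to 894 CPM in Block PBS and at 652, 957, 965 and 894 in Block WT, lowest in replicate 1 (log2 0.00 with and 0.12 ± 0.08 without it). Lag3 stood at 88.1 to 113 against 100 to 135 CPM, and Nt5e (CD73) at 238 to 258 against 179 to 255 CPM. Il1r2, the decoy receptor for IL-1, fell from 17.7, 25.9, 28.3 and 42.4 to 11.4, 18.2, 13.5 and 10.9 CPM, with 1 treated library above the lowest control (log2 -1.08 ± 0.33 and -1.02 ± 0.36). The calls of Il1r2 and Ebi3 were lost in at least 1 fit with the marker covariates.

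Foxp3 did not change detectably. It was at 870, 828, 765 and 775 CPM in Block PBS and at 698, 865, 817 and 795 in Block WT (log2 -0.03 ± 0.06 with and 0.03 ± 0.05 without replicate 1, edgeR's quasi-likelihood test, Benjamini-Hochberg adjusted p = 0.733 and 0.739). Of 12 Treg identity markers, 4 rose and 2 fell with all libraries, and 5 and 2 without replicate 1, beside 21.9% and 19.5% of all genes rising and 13.7% and 13.1% falling. Ikzf2 (Helios) went from 667, 687, 628 and 641 CPM to 619, 806, 954 and 859 CPM, with replicate 1 under every control and the rest above them (log2 0.30 ± 0.10 and 0.41 ± 0.09). Lrrc32 (GARP), which holds latent TGF-beta at the surface, stood at 311 to 347 CPM in Block PBS and at 320, 423, 398 and 397 in Block WT (log2 0.22 and 0.30). Gpr83 fell by 0.42 and 0.36 and Izumo1r (folate receptor 4) by 0.19 and 0.17 on the log2 scale, calls that the marker covariates ended in at least 1 fit.

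Transcription regulators of effector Tregs gave 6 rises and 2 falls among 18 with all libraries, and 8 and 2 without replicate 1. The shares over all genes were 21.9% and 19.5% for rises and 13.7% and 13.1% for falls. Id2, an inhibitor of E proteins, was at 77.9, 80.8, 85.8 and 76.8 CPM in Block PBS and at 151, 130, 120 and 124 in Block WT (log2 0.70 ± 0.07 and 0.63 ± 0.06). Tbx21, which encodes T-bet, was at 18.8, 15.1, 18.1 and 20.4 against 30.6, 31.5, 25.9 and 29.3 CPM (log2 0.69 and 0.67), and Maf rose by 0.48 and 0.54. Id2, Tbx21 and Maf were separated between groups, while Irf4 was not (94.5, 113, 120 and 116 CPM against 192, 140, 119 and 174 CPM, log2 0.49 and 0.38). Gata3 and Rora rose only in the fit without replicate 1, by 0.20 and 0.45. Myb fell from 51.9 to 57.7 CPM to 28.1 to 35.8 CPM, all treated libraries under all controls (log2 -0.73 ± 0.08 and -0.75 ± 0.09). Bcl6, described with the STAT5 targets, was the other fall. Irf4 was no longer called in both fits with the marker covariates.

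Genes of naive and recirculating T cells gave 7 falls in each fit among 18, 6 of them in both, beside 13.7% and 13.1% of all genes falling, with a median log2 fold change of -0.17 and -0.16. Ccr7, the receptor that guides cells into lymph nodes, went from 304, 310, 269 and 322 to 189, 239, 194 and 160 CPM (log2 -0.63 ± 0.13 and -0.61 ± 0.14). Igfbp4 went from 49.6, 46.3, 44.5 and 48.1 to 25.6, 26.3, 28.6 and 21.3 CPM (log2 -0.89 in both fits). Tcf7 (TCF-1) fell by 0.36 and 0.32 and Bach2, a repressor that keeps T cells quiescent, by 0.44 and 0.46 on the log2 scale. All 4 genes were lower in every treated library, replicate 1 included, than in any control. Il7r rose instead, from 191 to 211 CPM to 203, 270, 268 and 279 CPM (log2 0.36 and 0.46). With total counts 11 and 9 naive genes fell, beside 21.2% and 19.6% of all genes. With the marker covariates 4 and 2 fell, beside 9.62% and 7.84%, and Tcf7 and Bach2 were no longer called in both fits.

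Of 25 TCR response genes 8 were higher and 4 lower with all libraries, and 9 and 5 without replicate 1, beside 21.9% and 19.5% of all genes higher and 13.7% and 13.1% lower. With only total counts and without replicate 1 the counts were 5 and 6, beside 14.6% and 19.6%. With the marker covariates 4 and 3 were higher and 1 was lower in each fit, beside 14.4% and 12.5% higher, and the calls of Egr1 and Egr2 were lost in at least 1 fit. Their median log2 fold change was -0.02 and 0.00. Egr1, an immediate early factor, was at 311, 374, 393 and 356 CPM in Block PBS and at 532, 407, 353 and 519 in Block WT, with overlap (log2 0.34 and 0.25). Its relative Egr2 fell from 32.2 to 39.7 CPM to 28.2 to 31.3 CPM (log2 -0.31 and -0.28). Cd69, an early activation marker and retention receptor, rose from 363 to 405 CPM to 411 to 522 CPM, and Nfkbia, the feedback inhibitor of NF-kB, rose by 0.30 in both fits. Myc, a driver of growth, fell by 0.23 and 0.33 on the log2 scale, with replicate 1 (92.5 CPM) at the level of the controls.

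Cytotoxic granule genes rose for 11 of 13 in both fits, beside 21.9% and 19.5% of all genes, none fell, and the median log2 fold change was 1.32 with and 1.27 without replicate 1. Gzma, granzyme A, had the largest rise of the genes named by the rule for large changes in the fit without replicate 1. It was at 1.83, 2.46, 2.24 and 2.14 CPM in Block PBS and at 83.9, 49.9, 44.8 and 40.3 in Block WT (log2 4.64 ± 0.35 and 4.37 ± 0.33). Nkg7, a granule protein, rose from 26.7 to 31.7 CPM to 65.9 to 80.7 CPM, and the chemokine Ccl5 from 21.8 to 32.0 to 165, 111, 78.7 and 87.6 CPM. Prf1 (perforin) rose less, from 5.52 to 7.31 CPM to 16.0, 8.51, 8.20 and 7.81 CPM, and the chemokine Ccl3 went from 1.92 to 2.82 CPM to 29.9, 15.8, 13.9 and 13.4 CPM. Gzmc, named here after its values were seen, was at 0.599 to 0.883 CPM in Block PBS and at 2.33 to 3.20 CPM in Block WT.

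Several of these genes are also made by NK and CD8 T cells, and Gzma, Prf1, Nkg7 and Ccl5 stand on the NK or CD8 lists as well. Ncr1 (NKp46), an NK cell receptor, was at 3.27, 4.38, 4.64 and 4.37 CPM in Block PBS and at 14.7, 11.3, 8.47 and 10.8 in Block WT (log2 1.43 ± 0.20 and 1.28 ± 0.20). Klrk1 (NKG2D) went from 15.4 to 18.0 CPM to 44.9, 35.5, 29.8 and 35.1 CPM (log2 1.11 and 0.99). Klrb1c (NK1.1) did not pass, at 11.2 to 18.1 against 17.1 to 20.5 CPM. In all, 6 of 8 tested NK cell markers rose in both fits, and 4 and 3 of 5 CD8 T cell markers, beside 21.9% and 19.5% of all genes. Cd8a was at 0.372 to 1.11 CPM in Block PBS and at 21.4, 2.19, 1.37 and 3.07 in Block WT, and Cd8b1 rose only with replicate 1. With the marker covariates Prf1 and Cd8a were no longer called in both fits. The part of NK and CD8 T cells in the granule genes was not tested. The NK cell sum was highest in replicate 1 (211 CPM, against 120 to 135), but it includes Gzma and Prf1, which were also highest there. Ccl5 and Ccl3 were highest in replicate 1 as well. Gzmb was at 84.8 CPM there and at 75.0 to 87.6 in the other treated libraries.

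Genes of mitosis rose for 13 of 25 with all libraries and 7 of 25 without replicate 1, and none fell. Over all genes 21.9% and 19.5% rose. Mki67 (Ki-67) was at 185, 173, 169 and 172 CPM in Block PBS and at 307, 229, 219 and 311 in Block WT (log2 0.61 ± 0.13 and 0.53 ± 0.14), and Prc1, of the central spindle, rose by 0.62 and 0.61. All treated libraries were above all controls for both. In a fit with the marker covariates, only 1 mitosis gene was called with all libraries and 0 without replicate 1, while 14.4% and 12.5% of all genes rose. Mki67, Prc1, Rrm2 and Cdk4 lost their call in at least 1 fit with them. DNA replication genes did not move together: 2 rose and 4 fell among 28, and 3 and 5 without replicate 1, beside 13.7% and 13.1% of all genes falling. E2f2, a cell cycle transcription factor, rose by 0.52 and 0.49 and Rrm2, a ribonucleotide reductase subunit, by 0.39 and 0.35, while the polymerase gene Pold1 fell by 0.24 and 0.28 and the helicase subunit Mcm7 by 0.26 and 0.27. Cdkn2c, the cell cycle inhibitor p18, rose from 11.9 to 12.4 CPM to 18.2 to 21.3 CPM (log2 0.70 and 0.67), and Cdk4 fell by 0.12 in both fits.

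Genes of ribosome assembly fell. With all libraries 18 of 22 fell, without replicate 1 it was 16, beside 13.7% and 13.1% of all genes, none rose, and the median was -0.18 and -0.17. The direction held with every scaling tried, RLE, DESeq2, limma on FPKM and total counts, where 20 fell without replicate 1, beside 19.6% of all genes. Rrp9, a component of the U3 particle that processes ribosomal RNA, was at 45.9, 43.6, 45.1 and 45.8 CPM in Block PBS and at 34.0, 34.5, 31.7 and 34.5 in Block WT (log2 -0.42 ± 0.08 and -0.43 ± 0.08). Utp20, of the same machinery, went from 63.9 to 67.3 CPM to 49.5 to 55.5 CPM. Neither gene's groups overlapped, and replicate 1 stood with the other treated libraries. Ribosomal proteins moved the same way, 16 and 17 falling of 38 and none rising. With total counts 25 and 24 fell, beside 21.2% and 19.6% of all genes, and with the marker covariates 11 and 8, beside 9.62% and 7.84%. Utp20 was no longer called in both fits with these covariates. Single members were Rps19 at log2 -0.36 and -0.39 and Rps20 at -0.29 and -0.31. Reads of ribosomal proteins can be shared with many processed copies in the genome, so the levels of single members are uncertain.

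Cytoskeleton genes rose for 20 of 28 with all libraries and 21 without replicate 1, beside 21.9% and 19.5% of all genes, and none fell (median 0.23 in both fits). S100a6, a calcium-binding protein, was at 73.2, 75.5, 51.4 and 62.4 CPM in Block PBS and at 178, 183, 158 and 163 in Block WT (log2 1.38 ± 0.16 and 1.36 ± 0.17). S100a4, of the same family, rose from 92.6 to 130 CPM to 225 to 252 CPM (log2 1.08 and 1.05). The lowest treated library was above the highest control for both, and replicate 1 was not set apart. With total counts only, 17 and 18 members rose, beside 16.7% and 14.6% of all genes.

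Heat shock and endoplasmic reticulum chaperones gave 12 rises and 3 falls of 23 with all libraries and 11 and 3 without replicate 1, beside 21.9% and 19.5% of all genes rising and 13.7% and 13.1% falling. Hsp90b1 (GRP94), of the endoplasmic reticulum, was at 443, 443, 523 and 420 CPM in Block PBS and at 841, 741, 518 and 861 in Block WT (log2 0.69 ± 0.11 and 0.63 ± 0.11), and Creld2 at 32.1, 38.3, 43.3 and 35.6 against 73.1, 63.4, 38.1 and 76.2 CPM. In both genes Block WT replicate 3 lay within the control range. The mitochondrial partners Hspd1 and Hspe1 fell by 0.30 and 0.27 on the log2 scale with replicate 1 and by 0.25 each without it, with every treated library under every control. Plasma cell genes, which need a large secretory apparatus, varied over the same libraries. Jchain was at 545, 1444, 1799 and 1450 CPM in Block PBS and at 2952, 1945, 1443 and 2624 in Block WT, Mzb1 at 33.2, 40.5, 50.2 and 48.1 against 187, 107, 61.6 and 156 CPM, and Xbp1, a chaperone regulator on both lists, at 112 to 157 against 258, 203, 145 and 250 CPM. Replicate 3 was the lowest Block WT library for each of Hsp90b1, Creld2, Jchain, Mzb1 and Xbp1. In all 8 and 7 of 8 plasma cell markers rose, Prdm1 among them, and with the marker covariates 6 and 4 chaperones and 3 and 1 plasma cell markers rose, beside 14.4% and 12.5% of all genes. Creld2, Mzb1 and Xbp1 lost their call in at least 1 of these fits. The part of plasma cells was not tested.

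Few genes of the metabolic lists rose. Glycolysis genes gave 3 rises and no fall among 22 in each fit (with total counts, where 21.2% and 19.6% of all genes fell, 6 fell with and 2 without replicate 1), and the glucose transporter Slc2a3 rose by 0.32 and 0.36 and the lactate transporter Slc16a3 by 0.43 and 0.36. Sterol synthesis genes gave 1 rise and 5 falls, and 2 and 6, among 22, beside 13.7% and 13.1% of all genes falling, and with total counts 8 fell in each, beside 21.2% and 19.6%. Ebp, a sterol isomerase, rose by 0.41 and 0.40, and Mvk, mevalonate kinase, fell by 0.42 and 0.45. Oxidative phosphorylation genes gave 4 rises and 2 falls among 32, and 3 and 2 without replicate 1 (with total counts 0 and 1 rose and 6 fell in each, about the share of all genes falling). Interferon-stimulated genes gave 3 rises and 2 falls, and 4 and 1, among 26, led by Ifitm3 (3.91, 2.30, 6.84 and 3.32 CPM against 22.6, 9.95, 8.18 and 10.4) and the antiviral synthetase Oas1a (log2 0.56 and 0.58). In each of these 4 lists the share of rising genes was below that of all genes (21.9% with and 19.5% without replicate 1). Slc16a3, Mvk and Ifitm3 were no longer called in both fits with the marker covariates.

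The 10 largest rises by the naming rule (called in both fits, over 5 CPM on average, no overlap between 3 Block WT and 4 Block PBS libraries) were Gzma, Cd5l, C1qa, C1qc, Gzmb, C1qb, Ccl3, Ly6c2, Mrc1 and Fkbp11. Such separation upward was found for 20.7% and downward for 16.2% of all tested genes. Of the 10, 5 are macrophage genes whose average rests on replicate 1. C1qa, a complement chain made by macrophages, was at 62.6 CPM there, at 0.505, 0.154 and 1.29 CPM in the other Block WT libraries and at 0, 0, 0.0757 and 0.0931 in Block PBS, and C1qb, C1qc, Cd5l and Mrc1 had 71.1, 79.1, 42.2 and 88.0 CPM in replicate 1 and at most 4.98 in the other 7 libraries. None of these 5 was called in both fits with the marker covariates. Ly6c2, on the monocyte list but also made by memory-like lymphocytes and plasma cells, was at 17.7, 23.4, 43.1 and 31.9 CPM in Block PBS and at 199, 130, 81.9 and 242 in Block WT (log2 2.48 and 2.37). Fkbp11, a folding enzyme of secretory cells, was at 1.41 to 2.98 against 11.1, 7.57, 4.31 and 13.2 CPM. For both, replicate 3 was again the lowest treated library.

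The 10 largest falls were smaller and did not rest on replicate 1. Slc7a10, an amino acid transporter, went from 13.1, 15.8, 12.3 and 19.3 to 4.99, 7.23, 6.37 and 6.15 CPM (log2 -1.29 ± 0.23 and -1.20 ± 0.24). Dntt, the terminal transferase of developing lymphocytes, went from 13.5, 18.0, 7.57 and 12.2 to 4.65, 5.17, 6.02 and 5.49 CPM (log2 -1.26 and -1.20). Lad1, an anchoring filament protein, went from 42.7, 43.9, 29.3 and 44.1 to 17.1, 17.4, 21.2 and 16.7 CPM (log2 -1.14 and -1.11). The 4 treated libraries were the lowest of the 8 for each of these genes. Gm45234, Adgrg1, Fhdc1, Igfbp4, Rps12, Utp14b and Sox4 completed the 10, at log2 -1.20 to -0.87 without replicate 1. Rps12, and Utp14b, a close relative of another gene, are uncertain because near-identical copies can share their reads, and Rps12 lost its call in at least 1 fit with the marker covariates.

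The isotype arm tests which of these responses differed when MHC II was left free. There 6474 genes (52.2%) were called, 3227 higher (26.0%) and 3247 lower (26.2%). The difference between the responses, WT against PBS under MHC II block minus the same under isotype, passed for 2437 genes (19.7%) with all libraries and for 2165 (17.5%) without Block WT replicate 1. Without replicate 1 it was positive for 1284 (10.4%) and negative for 881 (7.11%). In both fits 1942 genes passed with the same sign, and 1710 of these still did after Isotype PBS replicate 1, a library rich in B cell markers (1016 CPM), was left out too. The values below are without Block WT replicate 1.

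For effector and identity genes the difference was mostly negative where it passed. It was below 0 for 10 of 20 effector surface receptors and above 0 for 2, below 0 for 7 of 17 suppressor molecules and for 8 of 12 identity markers, and the arms' median log2 fold changes were 0.54 against 0.95, 0.30 against 0.60 and 0.16 against 0.53. Over all genes 7.11% were below 0. General T cell identity markers gave the same direction, 8 of 12 below 0 and 1 above, with medians of -0.02 against 0.39. Foxp3 was at 689 to 774 CPM in Isotype PBS and at 965 to 1017 in Isotype WT, a rise of 0.43, and the interaction was -0.40 (edgeR's quasi-likelihood test, Benjamini-Hochberg adjusted p = 0.000682). Lrrc32 rose by 0.94 under isotype and by 0.30 under block (interaction -0.64), and Tigit by 1.67 and 0.55 (interaction -1.13). Lag3 went from 42.3 to 83.9 CPM to 145 to 322 CPM under isotype, log2 1.64, and did not pass under block (interaction -1.51, adjusted p = 0.00117). Its Block PBS mean was 102 CPM, above every Isotype PBS library. Areg was at 26.9 to 33.0 CPM in Isotype PBS and 74.1 to 103 in Isotype WT (interaction -0.89). Il10 rose in both arms, by 2.14 and 1.39 (interaction -0.75), as did Icos, by 1.17 and 0.56 (interaction -0.61). Pdcd1 and Ccr4 had interactions of -0.73 and -0.74.

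For another set of effector genes no difference between arms was detected. Gzmb rose by 3.03 under isotype and 3.21 under block (interaction 0.18 ± 0.38, edgeR's quasi-likelihood test, Benjamini-Hochberg adjusted p = 0.805). Klrg1 rose by 1.77 and 1.58, Il1rl1 by 1.84 and 1.62 and Ccr2 by 1.62 and 1.52, with interactions of -0.19, -0.22 and -0.10 and adjusted p from 0.445 to 0.802 by the same test. Socs2 rose by 0.88 and 0.92, and Ccr7 fell by 0.74 and 0.61. None of 18 naive genes had an interaction past the threshold without replicate 1 (1 positive and 1 negative with it), and none of 25 mitosis genes did in either fit, while 17.5% of all genes passed without it and 19.7% with it. With Isotype PBS replicate 1 left out as well, the naive gene Il7r passed (interaction 0.44).

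**Figure D4:**
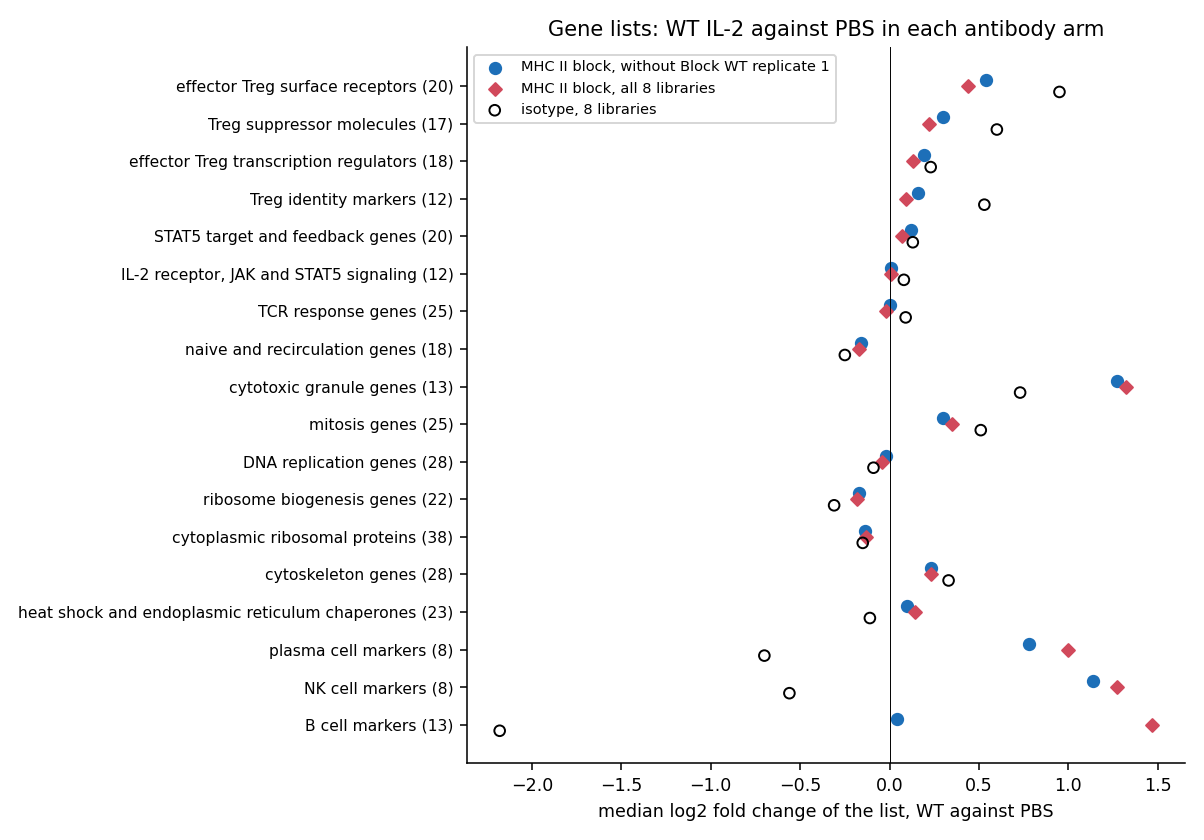
Median of the log2 fold changes, WT IL-2 against PBS (horizontal), over the tested members of each gene list (number in brackets), under MHC II block without Block WT replicate 1 (blue), under block with all 8 libraries (red) and under isotype (open). Effector receptors lie at 0.54 under block and 0.95 under isotype, and the plasma cell and NK cell lists lie above 0 under block and below 0 under isotype. The B cell list lies at 0.04 under block without Block WT replicate 1, at 1.47 with it and at -2.18 under isotype.

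The difference was positive for most markers of several other cell types. It was above 0 for 8 of 8 NK cell markers, 11 of 13 B cell markers, 7 of 8 plasma cell markers and 15 of 17 monocyte and macrophage markers, but for 3 of 5 CD8 T cell markers and 0 of 6 erythroid and platelet markers, of which 1 was below 0. Under block without Block WT replicate 1, 1 of 13 B cell markers rose. The B cell marker sum was 1016 CPM in Isotype PBS replicate 1 and 173 to 225 CPM in the other Isotype PBS libraries. These counts were not repeated without Isotype PBS replicate 1. Gzma was at 2.26 to 5.09 CPM in Isotype PBS and at 4.84 to 10.7 in Isotype WT (interaction 3.29). Klrk1 fell under isotype, from 15.3 to 29.0 CPM to 14.1 to 17.3 CPM, and rose under block (interaction 1.58), and Jchain fell from 1414 to 1729 CPM to 580 to 709 CPM (interaction 1.96). Of the chaperones, 9 of 23 had a positive and 0 a negative interaction. The 5 most positive interactions among genes averaging over 5 CPM in the 16 libraries, C1qc, C1qb, S100a9, Csf3r and Lyz2, are myeloid genes. That average includes Block WT replicate 1. Without it their Block WT means were 0.802, 0.647, 5.45, 1.49 and 11.9 CPM, so the rank rests in part on that library. Over all genes 10.4% were above 0. Without Isotype PBS replicate 1 as well, the interactions of C1qa, C1qb, C1qc, Cd5l, Cd8a and Sox4 no longer passed (2.00, 0.25, 1.39, 2.04, 1.47 and 0.50), whereas those of Gzma, Klrk1, Ncr1 and Jchain did (2.97, 1.75, 2.24 and 1.94).

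The 5 most negative interactions above the same level were Slc24a3, Vdr, Lag3, Zan and Samd11. Vdr, the vitamin D receptor, went from 2.22 to 4.20 CPM to 6.31, 23.4, 7.98 and 9.68 CPM under isotype and stood at 3.66 to 4.99 against 3.55 to 6.87 CPM under block (interaction -1.54). Zan went from 5.12 to 6.66 CPM to 15.5 to 21.6 CPM under isotype and stood at 7.52 to 9.55 and 7.90 to 10.5 CPM under block (interaction -1.47). All 5 rose under isotype and did not pass under block. A few genes outside the other-cell marker lists had a positive interaction, and their cell source was not tested. Id2 (0.43), Tbx21 (0.44) and Cd44 (0.33) had higher log2 changes under block than under isotype, Bcl2 (0.45) fell less, and Egr1 (0.73) fell under isotype, from 509 to 569 CPM to 353 to 426 CPM, while it rose under block. The Block PBS mean of Egr1 was 358 CPM, below every Isotype PBS library, so the arms already differed with PBS.

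**Figure D5:**
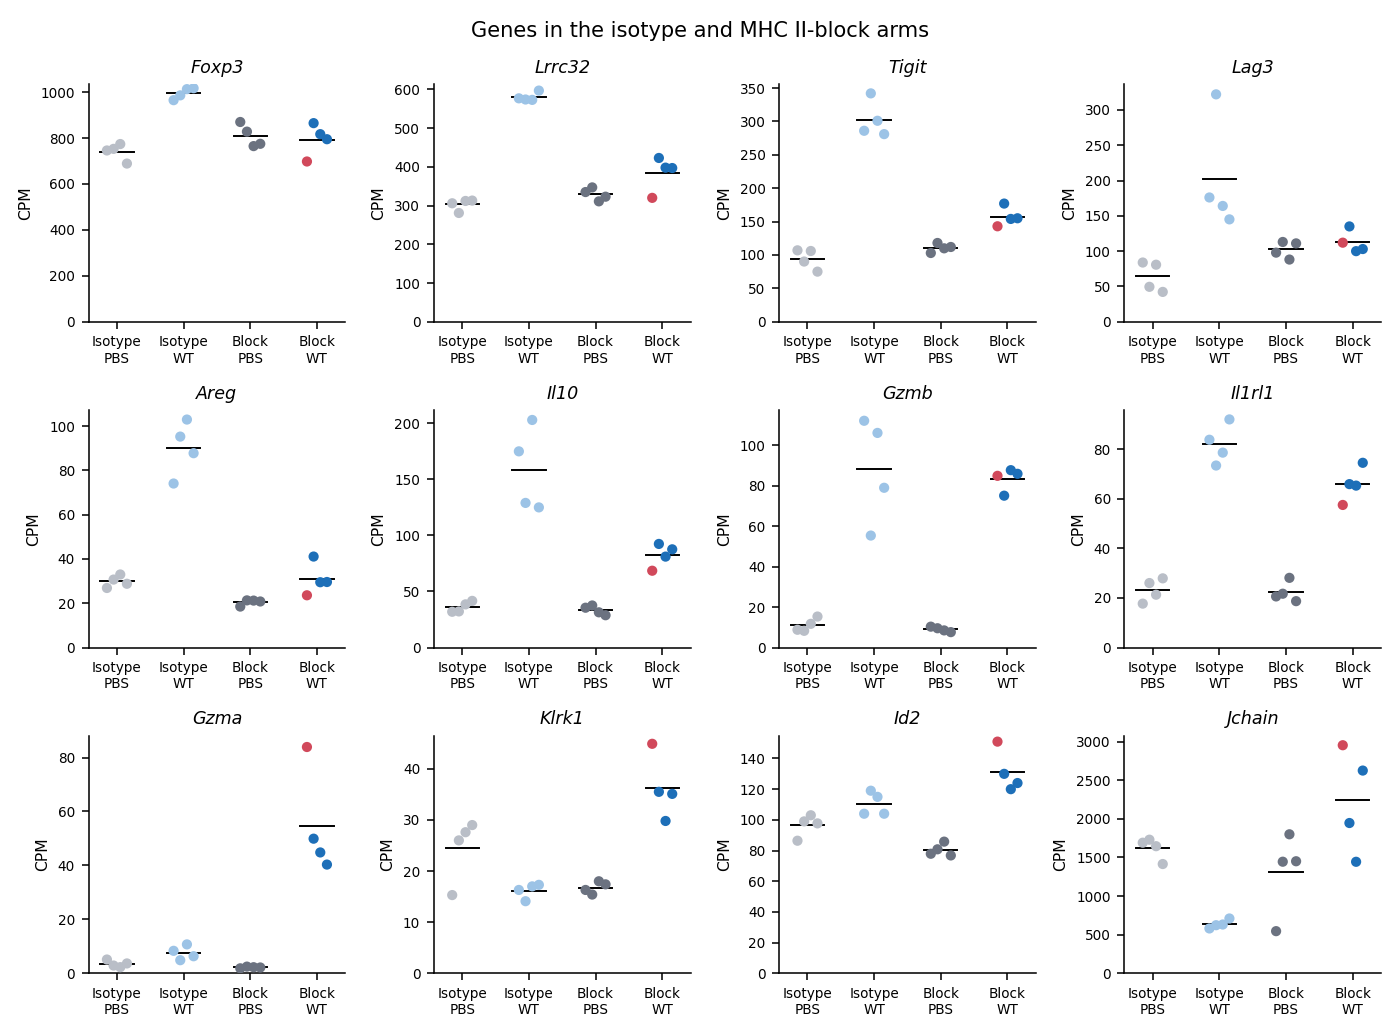
CPM of 12 genes in each library of Isotype PBS, Isotype WT, Block PBS and Block WT, with Block WT replicate 1 in red and a line at each group's mean. Foxp3, Lrrc32, Tigit, Lag3, Areg and Il10 are higher in Isotype WT than in Block WT, Gzmb lies at 55.3 to 112 and 75.0 to 87.6 CPM in the WT groups, and Gzma, Klrk1, Id2 and Jchain are higher in Block WT.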

How the data were processed

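Per the labels and the study's methods, RNA of individual mice was sequenced from stranded poly(A) libraries (paired reads) and aligned by the authors to mouse genome B38 with OSA in Omicsoft. Gene-level values were made with an implementation of RSEM. The deposited matrices hold expected counts (estimated counts, not whole for every gene) and FPKM for 53345 genes in 48 libraries, and 0 columns belonged to other samples. Totals of the 8 libraries were 27.5 to 38.38 M (Block PBS) and 31.25 to 51.24 M (Block WT) counts. Genes with an empty cell in a fitted library were left out.

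Expected counts were rounded, and protein-coding genes (by gene name in GENCODE vM21) above 0.5 CPM in at least 4 of the 32 Treg libraries were tested with edgeR 4.0.16 in R 4.3.3: TMM scaling, quasi-likelihood fit over all 8 Treg groups, Benjamini-Hochberg adjustment, threshold 0.1. Errors of log2 fold changes are standard errors. CPM values use TMM-scaled library sizes, except those of the CD25-negative libraries, which use total counts only. The difference between arms was tested as an interaction in the same fit. Alternatives used DESeq2 1.42.0, which the authors used in version 1.30.1, limma 3.58.1 on log2(FPKM + 1) and on log2(FPKM + 0.1), other scalings and filters, thinned counts, covariates and left-out libraries. Within each of the 4 groups used, no library was a copy of another (chi-square per gene 4.19 to 68.4; 29.5 between the Isotype WT libraries that share a mouse label).

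The members, gene lists and tests were chosen with earlier results of these data known. Named genes are members of the IL-2, STAT5, Treg, naive and TCR lists, the 10 largest rises and falls that held in both fits above 5 CPM without overlap, up to 2 rising and 2 falling members of other lists, the 5 highest and lowest interactions that held in both fits above 5 CPM over the 16 libraries, and the 3 most abundant markers of other cells. Where the text names fewer than this, the others were left out for length. Replicate numbers did not pair Block WT with Block PBS mice.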

Additional observations from a re-analysis of the deposited data

Results flagged for a closer look

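Of 278 groups of 4 libraries (genes named and marker sums, Block PBS and Block WT), 29 held a library whose gap to its nearest neighbour was unusually wide for the group's range (Dixon's criterion at 95%). Chance gives this in about 1 of 20 groups. Block WT replicate 1 was that library in 19 of the 29.

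Block WT replicate 1 was high for B cell markers (sum 933 CPM; Cd79a 145), neutrophil markers (sum 331; S100a9 99.1, Csf3r 56.4) and NK cell markers (sum 211; Prf1 16.0). It was also high for the macrophage genes Csf1r (214 CPM), Mrc1 (88.0), C1qc (79.1), C1qb (71.1), C1qa (62.6) and Cd5l (42.2), and for Lyz2 (148). The same held for Cd8a (21.4 CPM), Cd8b1 (24.5), Ccl3 (29.9) and Ifitm3 (22.6), while Il7r was low at 203 CPM. The other 10 were Itgae (99.8 CPM) and Gzmc (0.599) in Block PBS replicate 2, Pim2 (22.1) in Block PBS replicate 4, Stat5b (338) and Lad1 (21.2) in Block WT replicate 3, and S100a9 (3.35), Csf3r (1.72), Lad1 (29.3), E2f2 (48.8) and Mvk (8.55) in Block PBS replicate 3. S100a9 and Csf3r in Block PBS replicate 3 were the highest of the controls.

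The response to WT IL-2 differed between the MHC II block and isotype arms for 65 of the 129 named genes, beside 15.7% of all genes tested, by an interaction past the threshold with the same sign with and without Block WT replicate 1 (edgeR's quasi-likelihood test, Benjamini-Hochberg). Some of these genes were named for their extreme interactions, so the counts cannot be read against each other. The following values are log2 differences, block minus isotype, without that replicate. The 32 negative ones were Slc24a3 -1.63, Vdr -1.54, Lag3 -1.51, Zan -1.47, Samd11 -1.30, Tigit -1.13, Slc16a3 -0.98, S100a6 -0.95, Areg -0.89, Il10 -0.75, Ccr4 -0.74, Pdcd1 -0.73, S100a4 -0.67, Lrrc32 -0.64, Tnfrsf1b -0.63, Icos -0.61, Nt5e -0.61, Maf -0.58, Cdkn2c -0.54, Prdm1 -0.52, Ccr8 -0.51, Itgae -0.48, Tnfrsf4 -0.48, Jak3 -0.47, Izumo1r -0.45, Oas1a -0.43, Ctla4 -0.41, Foxp3 -0.40, Socs3 -0.36, Ebp -0.33, Stat5b -0.22 and Stat5a -0.21. Among the 33 positive ones, 19 genes of NK, CD8, B or myeloid cells or of granules gave C1qa 6.39, C1qc 6.33, Cd5l 6.28, C1qb 5.96, S100a9 5.47, Csf3r 4.96, Lyz2 4.14, Mrc1 3.63, Csf1r 3.60, Gzma 3.29, Cd8a 2.52, Cd79a 2.41, Ly6c2 2.31, Ncr1 2.13, Ccl3 1.58, Klrk1 1.58, Klrb1c 1.28, Ccl5 1.10 and Prf1 0.84. Genes of secretory cells gave Jchain 1.96, Mzb1 1.62, Fkbp11 1.57, Xbp1 0.78, Creld2 0.77 and Hsp90b1 0.58, and the remaining 8 were Egr1 0.73, Sox4 0.53, Lad1 0.48, Bcl2 0.45, Pim2 0.44, Tbx21 0.44, Id2 0.43 and Cd44 0.33. Leaving out Isotype PBS replicate 1 as well moved C1qa to 2.00, C1qb to 0.25, C1qc to 1.39, Cd5l to 2.04, Cd8a to 1.47 and Sox4 to 0.50, none of which then passed, and Mrc1 to 1.57, Csf1r to 1.99 and Cd79a to 1.46, which did. The other 56 still passed. The summed plasma cell markers were 854 to 1015 CPM in Isotype WT and 1798 to 3696 CPM in Block WT, and their part in these values was not tested.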

How the results depend on the processing

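The number of genes called under MHC II block stayed within 1.5 times its value under DESeq2, RLE scaling, total counts, 3 other filters, empty cells read as 0, limma with both pseudocounts and thinned counts (3809 to 4695 with all libraries, 3348 to 4243 without Block WT replicate 1). A fit to the libraries of the comparison alone gave 4214 and 4772. Requiring a change of at least 2-fold left 552 genes with all libraries and 285 without replicate 1, 696 for isotype, and 716 and 549 for the interaction. With the B cell and myeloid marker covariates 2975 genes were called with all libraries and 2525 without replicate 1. Leaving out 1 library gave 3673 to 4115 calls with all libraries, 3129 to 3704 without replicate 1, 1993 to 2639 for the interaction, 1639 to 2585 for the interaction without replicate 1 and 5833 to 6265 for isotype.

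Same-numbered Block WT and Block PBS libraries deviated from their group means with correlations of -0.28, 0.12, -0.44 and 0, and not every library correlated best with its own number, so the numbers pair nothing. A replicate block on the libraries of the comparison alone gave 2966 calls, against 4214 on these libraries without the block.

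Of 106 named genes called with the same sign with and without replicate 1, 75 kept the call when any 1 further library was left out, and 71 of these under every other fit but that with the covariates. The rest of the 75 were Lrrc32, Cd44, Xbp1 and Creld2. The 31 that lost it without some library were Ikzf2, Gpr83, Izumo1r, Il2rg, Stat5b, Socs1, Socs3, Bcl2, Ccr8, Ebi3, Il1r2, Irf4, Egr1, Egr2, Prf1, Cd8a, Cd5l, C1qa, C1qb, C1qc, Mrc1, Hspe1, Cdk4, Myc, S100a9, Lyz2, Mcm7, Mvk, Rrm2, Slc16a3 and Tnfrsf1b. The marker covariates ended the call of 36 in at least 1 fit (Gpr83, Izumo1r, Stat5a, Stat5b, Socs1, Socs3, Bcl2, Ebi3, Il1r2, Irf4, Tcf7, Bach2, Egr1, Egr2, Prf1, Cd8a, Cd5l, C1qa, C1qb, C1qc, Mrc1, Mzb1, Xbp1, Creld2, Mki67, Prc1, Cdk4, Utp20, Rps12, S100a9, Lyz2, Rrm2, Slc16a3, Mvk, Ifitm3 and Tnfrsf1b), and 62 kept it in every fit. These 62 also passed at an adjusted p of 0.05, and 21 of them had a change of at least 2-fold in both fits. Leaving out either of the Isotype WT libraries that share a mouse label gave 1953 and 1942 interaction calls without replicate 1. DESeq2 gave no adjusted p for Cd5l, C1qa, C1qb and C1qc.

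Sign changes are listed for named genes only where the main fit or the alternative called the gene. The sign turned with the covariates for Cd8b1 (-0.04) and Csf1r (-0.55) with all libraries, C1qb (-0.04) and Csf1r (-0.99) without replicate 1, Cd5l (-0.58), C1qa (-1.85), C1qb (-2.68), C1qc (-1.36), Mrc1 (-0.22) and Csf1r (-0.22) for the interaction without replicate 1, and C1qb (0.54) for isotype. C1qb also turned under isotype without Isotype PBS replicate 1 (2.92), and left-out libraries gave it -3.18 to 2.92. The covariates use markers of the same cell types. They also include Ccr2 and Ly6c2, which T cells can make and which rose with IL-2 in every treated library. The myeloid covariate thus follows the treatment in part, so a call lost with it cannot be assigned to other cells. Below about 1 CPM, as for C1q genes in Block PBS, few reads stand behind a value.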

Other observations

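In the CD25-negative cells of the same spleens, 2 libraries per group, the summed NK cell markers were 122 and 113 CPM with PBS under MHC II block and 574 and 346 CPM with WT IL-2, and the neutrophil markers 201 and 179 against 1003 and 1257 CPM. By their labels, the first WT value of each pair (574 and 1003 CPM) came from the mouse of Block WT replicate 1. With 2 libraries a group these are values without a test.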
